A study of Arabidopsis thaliana with 33 samples.

Results

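The comparison described here sets what the ap3 mutation did to floral gene expression in Arabidopsis thaliana, the thale cress, against what the nzz mutation did. Its members are 8 of the 33 two-colour arrays of the study, chosen by their labels: 4 arrays of ap3 young buds over wild type and 4 arrays of nzz inflorescences over wild type. The quantity tested was the difference of the mutant-over-wild-type log ratios, ap3 minus nzz, with the dye orientation of the arrays as a term. Of 25974 gene probes tested, 754 (2.9%) differed between the mutants, 572 (2.2%) with the ap3 ratio above the nzz ratio and 182 (0.701%) with it below.

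For ap3, older flowers were removed and the inflorescence meristem was taken with buds no older than early stage 10, from the mutant and from wild type of the same early stages. For nzz, the meristem and buds as old as stage 13 were taken, from the mutant and from wild type. Each sample pooled tissue of 50 plants, and each array carried mutant RNA in one dye and wild-type RNA in the other, with 2 arrays per orientation in each mutant. Neither the alleles nor the strain of the plants is given in the sources used here. Stage and genotype change together between the groups, so in every difference below the mutation and the older buds of the nzz samples cannot be told apart. In such whole-bud samples, fewer cells of a type and less RNA per cell cannot be told apart either. The labels speak of at least 3 independent biological samples and do not tie each array to one, so the p-values measure the spread between arrays, some of which may be technical. The remaining 25 arrays are 4 of ms1 inflorescences to stage 13 and 21 of a series of ms1 flowers sorted by age into 7 samples. The 4 ms1 inflorescence arrays were fitted together with the 8, so they enter the dye term and the spread behind every p-value. With the 8 arrays fitted alone, 779 probes were called, 517 of them among the 754. The ms1 ratios and the series are given only beside these results.

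APETALA3 (AP3) is a MADS-box transcription factor that, with its partner PISTILLATA, gives floral organs the identity of petals and stamens. In ap3 mutants, sepals and carpel-like organs stand where petals and stamens would be, so anthers are missing. SPOROCYTELESS/NOZZLE (SPL, mutated in nzz) acts later, inside the young anther and ovule. Without it, the cells that should enter meiosis are not set aside, the tapetum, the nurse tissue of the pollen, does not form properly, and no pollen is made, while petals and stamen filaments are present. MALE STERILITY 1 (MS1) acts later still, in the tapetum.

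The values are log2 ratios of mutant over wild type, so that 1 unit is a factor of 2 and a negative value means less transcript in the mutant. The direction is likely and not settled. The deposited table does not name the numerator, and wild type was taken to be the numerator because the study's design and the side of the pollen genes point that way. Under the other sign, "above" and "below" would swap, as would "higher" and "lower", with the same number of calls. Since the fall of pollen genes in nzz helped to choose the sign, it is no result here. A probe was called where limma's Benjamini-Hochberg adjusted p was under 0.05 over all probes tested, and errors are limma's SEs with n = 4 arrays per mutant. Between 2.47% and 4.91% of the values of an ap3 array, and between 3.52% and 7.57% of those of an nzz array, lay at the table's limit of 100-fold (6.64 as log2), where a ratio is a bound. The values were taken as already turned to one direction on every array, and that reading is least well borne out in ap3. Over 20433 probes with complete values off the limit, ap3 arrays of opposite dyes correlated at r = -0.13 to 0.00 across probes and those of the same dye at 0.42 and 0.54, against 0.49 to 0.55 and 0.74 and 0.76 for nzz. The dye term was called at 5183 of the 25974 probes, and where values of opposite dyes differ in sign an ap3 mean near 0 can be their average. For that reason ap3 medians are also given within each dye orientation. The calls also rest on 4 arrays a side: without ap3 replicates 1, 2, 3 and 4 in turn the count was 749, 278, 257 and 361, and with nzz replicates 1, 2, 3 and 4 left out the counts were 235, 367, 381 and 444. AP3 itself has no named probe. SPL averaged -0.47 ± 0.12 in ap3 and -0.26 ± 0.12 in nzz (SE, n = 4 arrays each), a difference of -0.21 ± 0.17 that did not pass (adjusted p = 0.60). The position of that probe relative to the mutation is unknown here, and it is no check of the labels.

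The 572 probes above were, in the main, lower in nzz, while most had a mean ratio near 0 in ap3, as most tested probes did. Their median ratio was 0.01 in ap3 and -1.32 in nzz, beside 0.02 in ap3 and 0.10 in nzz over all tested probes. The median difference was 1.34, with quartiles of 0.79 and 2.28, beside a median of -0.08 over all tested probes. At 366 of them (64.0%, beside 15.6% of all tested probes) the difference was at least 2-fold. It was at least 8-fold at 96, beside 674 of the 25974 tested. In ap3, 540 of the 572 lay within 1 log2 unit of wild type (94.4%, beside 93.3% of all tested probes), and the nzz ratio was itself called lower at 558 (beside 6.95% of all tested probes). Within the 2 arrays of each orientation, the ap3 median of the 572 was 0.05 with the mutant in Cy5 and -0.07 with it in Cy3, and the nzz median was -1.36 and -1.29. The ap3 mean lay within 1 unit of wild type in both orientations at 499 of the 572 (87.2%, beside 85.5% of all tested probes). The count of 558 describes the difference, since the nzz ratio is one of its terms. All 4 ap3 arrays lay above all 4 nzz arrays at 529 of the 572, beside 4.94% of all tested probes. That count describes the selection too, since the 572 were called on the same arrays.

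The 182 probes below showed smaller differences. Their median ratio was -0.21 in ap3 and 0.40 in nzz, and their median difference was -0.59, with quartiles of -0.85 and -0.48. The difference was at least 2-fold at 35 of them (19.2%, close to the 15.6% of all tested probes). The nzz ratio was called higher at 143 (beside 8.34% of all tested probes), the ap3 ratio was called lower at 15 (beside 0.123%), and neither ratio passed on its own at 26. The groups did not overlap at 144, beside 5.82% of all tested probes. As for the probes above, such counts describe the selection, since the same arrays gave the calls. With each array centred on its median, 87.9% of the calls lay above, compared with 75.9% as deposited, and the count below was 92.

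**Figure D1:**
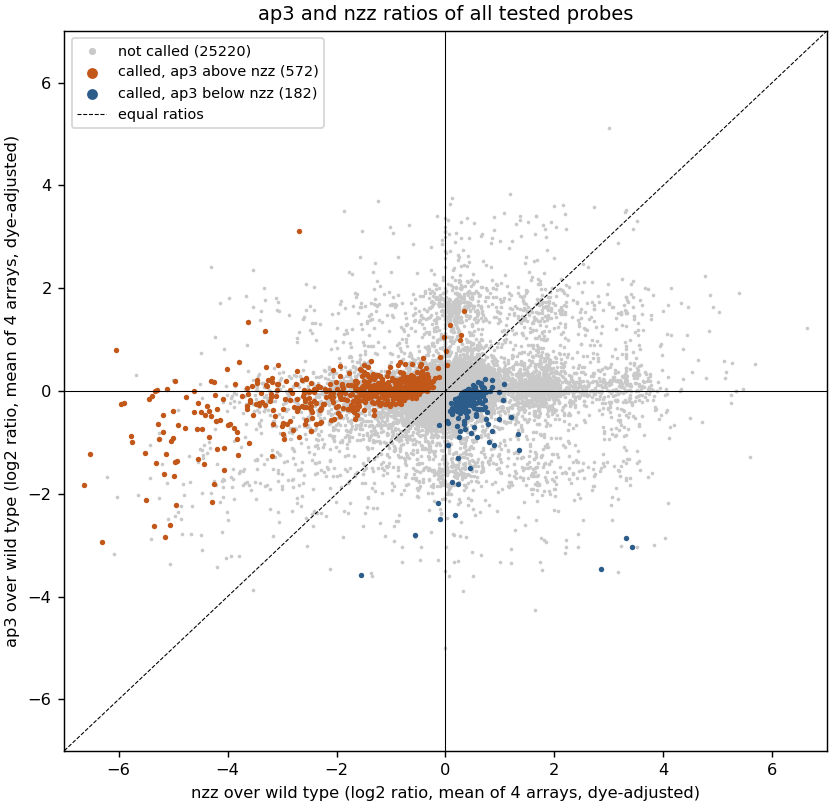
Each point is 1 of the tested probes, with its nzz ratio on the horizontal axis and its ap3 ratio on the vertical axis, both as log2 of mutant over wild type (fitted means of 4 arrays). Orange points are the 572 probes called with ap3 above nzz and blue points the 182 called below. The orange points stretch along the horizontal line at an ap3 ratio of 0, and the blue points lie mostly close to the centre, with a few far below it.

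Among the 55 genes named by rule, 11 kept their call under every alternative setting that gave them a value other than reading the values as dye ratios, including each array left out in turn: 6 above and 5 below. They are described first. ACT12, an actin of mature pollen, had ratios of -0.59, -0.86, -0.46 and -0.34 on the 4 ap3 arrays and -4.56, -4.41, -3.83 and -3.77 on the 4 nzz arrays. Every ap3 array lay above every nzz array by more than 2 units. The difference was 3.58 ± 0.29, or 12-fold (adjusted p = 0.000819), and the ap3 ratio alone did not pass (adjusted p = 0.41). SWEET5, a member of the SWEET family of sugar transporters that RefSeq lists as AtVEX1, named for the vegetative cell of pollen, had -0.22, 0.91, 0.23 and -0.04 on the ap3 arrays and -3.44, -3.32, -3.64 and -2.66 on the nzz arrays. Its difference was 3.48 ± 0.30, or 11.2-fold (adjusted p = 0.00121), and the groups were again far apart.

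BGAL15, a beta-galactosidase, one of the enzymes that trim galactose from cell-wall polymers, had -1.10, 0.07, -0.13 and -0.03 on the ap3 arrays and -4.10, -3.61, -4.89 and -4.93 on the nzz arrays. The difference was 4.09 ± 0.24, or 17-fold (adjusted p = 0.000293), and among these 11 genes it had the lowest adjusted p. Unlike ACT12 and SWEET5, which were called lower in ms1 as well (-2.69 ± 0.20, adjusted p = 0.00103, and -2.56 ± 0.21, adjusted p = 0.00113), BGAL15 had a ratio of 0.70 ± 0.17 in ms1 that did not pass (adjusted p = 0.08). The ms1 and nzz ratios were not tested against each other here. ARR16, listed by RefSeq as RR16, is a type-A response regulator, a class of proteins that cytokinin induces and that damp cytokinin signalling. It had -0.33, -0.05, -0.22 and 0.13 on the ap3 arrays and -2.37, -1.93, -1.86 and -1.59 on the nzz arrays. The difference was 1.81 ± 0.20, or 3.52-fold (adjusted p = 0.00367), and no ap3 array came near an nzz array.

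AT5G53820 and AT4G04460, which carry no gene symbol in the reference table, complete the 6 above. AT5G53820 had 0.05, -0.25, -0.31 and 0.18 on the ap3 arrays and -4.60, -4.71, -3.99 and -3.61 on the nzz arrays, a difference of 4.15 ± 0.51 (adjusted p = 0.00536). AT4G04460 had -1.64, -0.24, -0.19 and 0.16 on the ap3 arrays and -4.09, -3.74, -4.58 and -5.25 on the nzz arrays, a difference of 3.94 ± 0.48 (adjusted p = 0.00536). In both, the lowest ap3 array stayed more than 2 units above the highest nzz array.

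Of the 5 genes below, THI2.1 is the one with a gene symbol in the reference table. This gene encodes a thionin, a small antimicrobial protein of leaves and flowers that jasmonate induces. It had -1.06, -1.48, -2.49 and -1.01 on the ap3 arrays and 0.14, 0.69, 0.10 and 0.89 on the nzz arrays. All ap3 arrays lay below wild type and all nzz arrays above it. The difference was -1.96 ± 0.28, or 3.90-fold (adjusted p = 0.0104), and the ap3 ratio of -1.51 ± 0.20 was itself called (adjusted p = 0.0321). AT3G18900 was the gene most strongly lower in ap3 among these: it had -2.78, -1.77, -2.59 and -2.50 on the ap3 arrays and 0.45, 0.25, -0.02 and 0.01 on the nzz arrays. Its difference was -2.58 ± 0.18 (adjusted p = 0.000472), almost all of it from ap3. A second probe of AT3G18900 gave a difference of -0.52 ± 2.03 that did not pass (adjusted p = 0.95), with an SE more than 10 times as large.

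AT2G28140 moved in opposite directions in the mutants. It had -1.48, -0.83, -0.91 and -1.01 on the ap3 arrays and 0.96, 1.23, 0.75 and 0.66 on the nzz arrays, with a difference of -1.96 ± 0.16 (adjusted p = 0.000858). Both ratios passed on their own, lower in ap3 (adjusted p = 0.0142) and higher in nzz (adjusted p = 0.00137). AT5G49120 showed the same arrangement at a smaller size, with -0.41, -1.03, -0.83 and -0.71 on the ap3 arrays and 0.08, 0.48, 0.44 and 0.42 on the nzz arrays. Its difference was -1.10 ± 0.12 (adjusted p = 0.00367), and its ratios passed in ap3 (adjusted p = 0.0183) and in nzz (adjusted p = 0.024). AT3G10720 had -1.07, -0.50, -0.74 and -0.80 on the ap3 arrays and 0.32, 0.15, 0.33 and 0.25 on the nzz arrays. Its difference was -1.04 ± 0.11 (adjusted p = 0.00367), with the ap3 ratio called (adjusted p = 0.0127) and the nzz ratio not (adjusted p = 0.06).

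**Figure D2:**
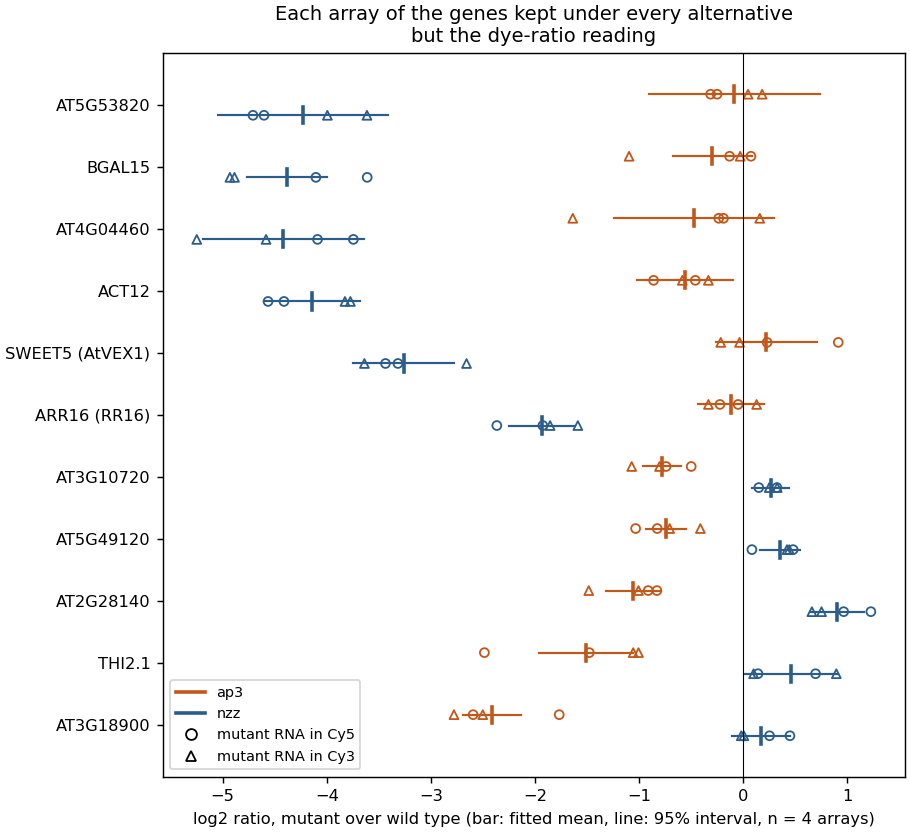
Each marker is the log2 ratio of mutant over wild type on 1 array for the 11 genes whose call held under every alternative but the dye-ratio reading, with ap3 in the upper line of each gene (orange) and nzz in the lower (blue). Circles are arrays with the mutant RNA in Cy5 and triangles those with it in Cy3, thick ticks are fitted means and lines 95% intervals (n = 4 arrays). The ap3 and nzz arrays do not overlap in any of the 11 genes, and AT4G04460 and BGAL15 lie lowest in nzz.

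The other 44 named genes lost their call under at least one alternative, 40 of them without at least 1 of the 8 arrays, and none changed direction. The largest differences among named genes with values off the limit were in this group. AT1G23240 had -0.10, -0.52, 0.34 and 0.31 on the ap3 arrays and -5.53, -4.83, -4.98 and -5.83 on the nzz arrays. Its difference was 5.31 ± 0.88, or 39.6-fold (adjusted p = 0.0169), and the adjusted p ran from 0.039 to 0.068 over the 8 arrays left out, with the call lost without ap3 replicate 3, ap3 replicate 4, nzz replicate 1 or nzz replicate 2. AT5G46950, AT5G07430 and AT5G44400 kept their calls with any 1 array left out. Their differences were 4.49 ± 0.63 in AT5G46950, 4.30 ± 0.56 in AT5G07430 and 4.06 ± 0.56 in AT5G44400. AT5G46950 had the highest ap3 mean of the 15 largest, 1.17 ± 0.44, which came from 2.64 and 3.35 on the arrays with the mutant in Cy5 and did not pass (adjusted p = 0.44); the arrays with the mutant in Cy3 gave -0.88 and -0.43. The other 8 of the 15 largest, from 4.00 in AT1G51410 to 5.14 in AT2G04020, are loci without a symbol, and each lost its call without 1 or more of the arrays (highest adjusted p 0.061 to 0.15).

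Anther and pollen genes were then followed by role, through 19 lists of genes of flower tissues and processes. Of 378 listed genes, 79 had a tested probe matched by symbol and locus. The difference was called at 11 of the 79 (13.9%, beside 2.9% of all tested probes), 10 above and 1 below. The lists were chosen with earlier results of these data known, and pollen genes helped to choose the sign. Neither that share nor its direction is therefore a test of the lists. Of 19 listed early anther genes, 5 were measured (SPL, EMS1, ROXY1, ROXY2 and JAG). None of the 5 passed, and their median difference was 0.10. EMS1, the receptor kinase that specifies the tapetum, had a mean of -0.32 ± 0.08 in ap3 (adjusted p = 0.23) and -0.55 ± 0.08 in nzz, where it was called lower (adjusted p = 0.00363). JAG and ROXY2 each had an ap3 value at the limit, and their differences were poorly determined. JAG differed by 1.23 (95% interval -1.41 to 3.87) and ROXY2 by -2.17 (95% interval -5.57 to 1.24). None of 8 meiosis genes passed, with a median difference of 0.06. Among them SDS, a meiotic cyclin, averaged 0.10 ± 0.09 in ap3 and 0.49 ± 0.09 in nzz, where it was called higher (adjusted p = 0.01), with a difference of -0.39 ± 0.13 (95% interval -0.69 to -0.09) that did not pass (adjusted p = 0.18).

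In the tapetum, AMS was the 1 transcription factor with a probe matched by symbol and locus. AMS (ABORTED MICROSPORES) is a bHLH factor needed for the tapetum to feed and coat the microspores. It had -4.33, -1.14, -0.38 and 0.23 on the ap3 arrays, a wide spread, and -4.84, -4.87, -6.64 and -4.94 on the nzz arrays, where replicate 3 lay at the limit. The lowest ap3 array thus came within 1 unit of the nzz arrays. The difference was 3.92 ± 0.86 (adjusted p = 0.048), and the call was lost with any array left out other than ap3 replicate 1 (adjusted p 0.00432 to 0.14 over the 8). In ms1 the AMS ratio was 1.17 ± 0.61. Of 3 further loci of that list matched by locus alone, none passed: AT2G31220 averaged -1.23 ± 0.29 in ap3 and -1.19 ± 0.29 in nzz, AT2G31210 averaged -2.63 ± 0.54 in ap3 and -2.43 ± 0.54 in nzz, and AT1G06170 had -2.65, -0.39, -6.64 and 0.22 on the ap3 arrays, with replicate 3 at the limit, and averaged -1.47 ± 0.86 in nzz. Their differences were -0.05, -0.20 and -0.89, with 95% intervals from -0.98 to 0.89 for AT2G31220, from -1.94 to 1.53 for AT2G31210 and from -3.66 to 1.87 for AT1G06170.

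The 5 measured genes of tapetal products and the pollen wall had a median ratio of -1.30 in ap3 and -4.46 in nzz, and a median difference of 3.16, yet none passed. ATA20, an anther-specific gene, averaged -1.30 ± 0.51 in ap3 and -4.46 ± 0.51 in nzz (adjusted p of the difference 0.06). SWEET8, a sugar transporter of the tapetum and microspores needed for the pollen wall, averaged -1.82 ± 0.40 in ap3 and -4.21 ± 0.40 in nzz (adjusted p = 0.06). ATA27, a tapetal beta-glucosidase, averaged -1.68 ± 0.86 in ap3 and -6.22 ± 0.86 in nzz (adjusted p = 0.09), where 2 of 4 nzz arrays lay at the limit and the mean is a bound. SHT, which makes the spermidine conjugates of the pollen coat, ran from -6.64 to 6.64 on the ap3 arrays, with 2 of them at the limit, and from -6.64 to -3.95 on the nzz arrays, with 1 at the limit. UNDEAD, a tapetal protease, averaged -0.28 ± 0.86 in ap3 and -0.13 ± 0.86 in nzz, so it did not share the low nzz values of the other 4. Its arrays had SDs of 0.69 in ap3 and 0.42 in nzz, and 1 ms1 array of the same fit lay at the limit. None of the 5 ap3 means passed on its own, and the ap3 arrays of ATA20, SWEET8 and ATA27 spread widely, with SDs of 1.27 to 2.82.

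Genes of pollen itself gave 3 calls among 14. Of 7 mature pollen genes, ACT12 alone was called. All 7 differences were positive, with a median of 1.66, beside a median of -0.08 over all tested probes. Of the 25974 tested probes, ap3 lay above nzz at 10372 with the mutant in Cy5 and at 11716 with it in Cy3. Pollen genes helped to choose the sign, so the shared direction is no test of this list. Not all of the list was low in nzz. TUA1 averaged 0.01 ± 0.09 in ap3 and -0.20 ± 0.09 in nzz (adjusted p of the nzz ratio 0.19). ACT11 averaged 0.25 ± 0.13 in ap3 and -0.26 ± 0.13 in nzz (adjusted p of the nzz ratio 0.23). VGDH1 and VGD1 are pectin methylesterases of the pollen tube wall. VGDH1 averaged -2.50 ± 0.41 in ap3 (adjusted p = 0.077) and -5.09 ± 0.41 in nzz, a difference that did not pass (adjusted p = 0.054). VGD1 averaged -2.36 ± 0.35 in ap3 (adjusted p = 0.048) and -4.02 ± 0.35 in nzz, and its difference of 1.66 ± 0.49 did not pass (adjusted p = 0.13). The 2 loci of the pollen coat list, both matched by locus alone, did not pass: AT1G75920 averaged -1.11 ± 0.59 in ap3 and -4.33 ± 0.59 in nzz (adjusted p of the difference 0.084), and AT1G75890 averaged 0.14 ± 0.30 in ap3 (3 arrays, 1 value missing) and 0.66 ± 0.26 in nzz (adjusted p of the difference 0.59). AT4G39110, a member of the mature pollen list matched by locus alone, was called as well. Its difference was 1.67 ± 0.36 (adjusted p = 0.044), lost with any 1 array left out (adjusted p 0.077 to 0.14). The other members of that list matched by locus alone did not pass. Their differences were -0.02 in AT4G33970, 0.09 in AT2G15880, 0.17 in AT1G49490, 1.84 in AT2G21480 and 3.14 in AT3G19020.

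Among 7 transcription factors of pollen, AGL66 and BZIP34 were called, and all 7 differences were again positive, with a median of 0.74. As for the mature pollen genes, that shared direction is no test of the list. Of the 5 differences that did not pass, those of AGL30 (0.36 ± 1.18) and AGL94 (0.47 ± 1.40) were smaller than their SEs. Those of AGL104, AGL65 and AGL18 were larger than theirs. AGL66 is one of the MADS-box factors that act late in pollen maturation. It had 0.66, -0.61, -0.85 and 0.78 on the ap3 arrays and -1.61, -2.0, -0.28 and -0.62 on the nzz arrays, so the groups overlapped and each split by dye, with the arrays that had the mutant in Cy3 higher in both. With the dye term the difference was 1.12 ± 0.20 (adjusted p = 0.0204); without it the call was lost. Leaving out 1 array gave adjusted p of 0.042 to 0.073, above the threshold without ap3 replicates 2, 3 or 4 or nzz replicates 1, 2 or 4. AGL104, its close relative, averaged 0.01 ± 0.35 in ap3 and -2.07 ± 0.35 in nzz without passing (adjusted p = 0.06). BZIP34, a bZIP factor needed for normal pollen wall and lipid metabolism, averaged 0.19 ± 0.09 in ap3 and -0.43 ± 0.09 in nzz. Its difference of 0.62 ± 0.13 (adjusted p = 0.045) was lost with any 1 array left out (adjusted p 0.053 to 0.13).

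The sugar transporters were the list with most calls: SWEET5, SWEET13 and SWEET14 of 8 genes measured. SWEET13 and SWEET14 export sucrose and also carry gibberellin in anthers. SWEET14 had 0.03, 0.59, 0.58 and -0.15 on the ap3 arrays and -2.48, -2.39, -2.76 and -2.58 on the nzz arrays. Its groups were well apart, and the nzz arrays lay close to each other. The difference was 2.81 ± 0.51 (adjusted p = 0.024), with adjusted p of 0.053 to 0.090 when 1 array was left out, so that the call needed all 8. SWEET13 had -0.01, 1.18, 0.09 and -0.62 on the ap3 arrays and -1.75, -1.65, -1.34 and -1.86 on the nzz arrays. Its difference was 1.81 ± 0.35 (adjusted p = 0.033), kept only without nzz replicate 3 (adjusted p 0.034 to 0.11 over the 8). Not all of the family moved this way: SWEET1 averaged -0.53 ± 0.14 in ap3 and 0.12 ± 0.14 in nzz, and SWEET11 averaged -0.28 ± 0.16 in ap3 and 0.14 ± 0.16 in nzz, neither with a difference that passed (adjusted p = 0.12 and 0.39).

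**Figure D3:**
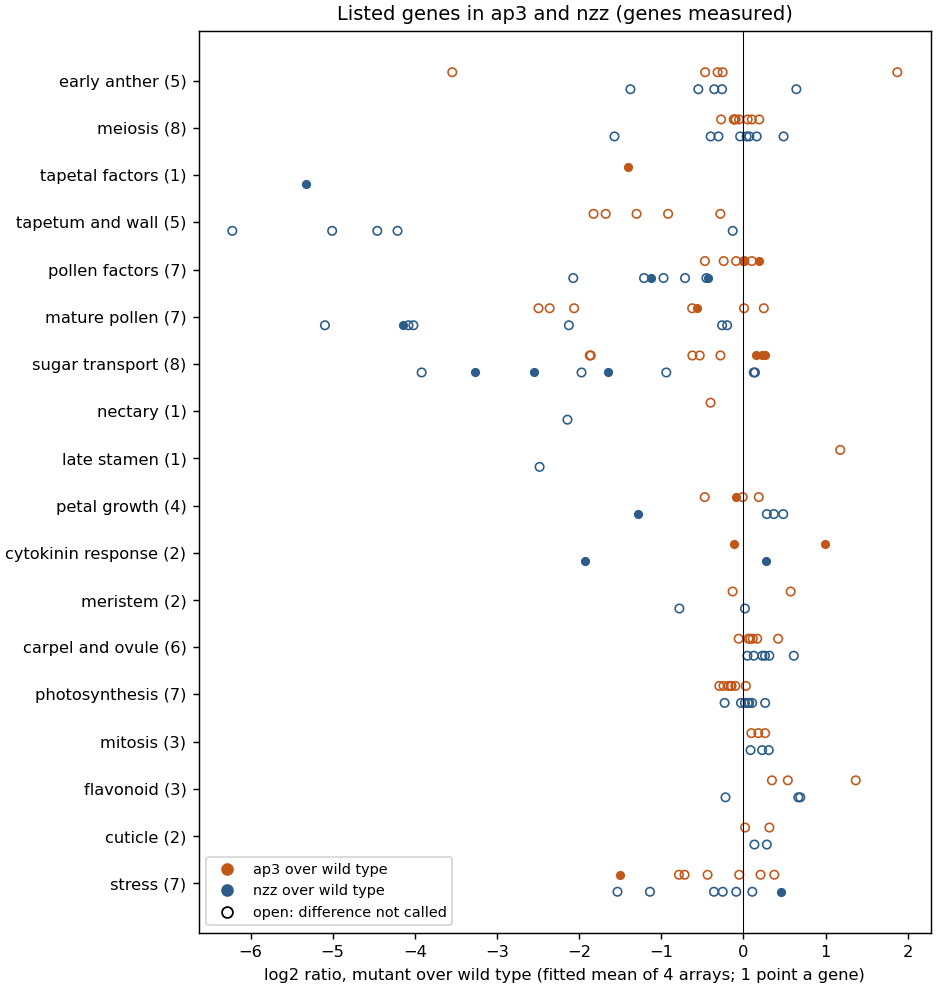
Each circle is 1 listed gene, with its log2 ratio of mutant over wild type in ap3 (orange, upper line of each list) and in nzz (blue, lower line); filled circles are the 11 genes whose difference was called, means that include values at the limit (such as those of ATA27, SHT, ADPG1, JAG and ROXY2) are drawn as fitted, and the number after each list is that of genes measured. The nzz circles of the tapetum, mature pollen and sugar transport lists reach -6.22, -5.09 and -3.92, and those of the meiosis, carpel, photosynthesis and mitosis lists lie mostly within 1 unit of 0 in both mutants.

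Both measured genes of the cytokinin response list were called. ARR16 was lower in nzz (adjusted p = 0.000137) and is described above. ARR15, another type-A response regulator, had 1.01, 0.72, 0.95 and 1.27 on the ap3 arrays and 0.15, 0.62, 0.21 and 0.12 on the nzz arrays. All ap3 arrays lay above all nzz arrays. ARR15 was called higher in ap3 (0.99 ± 0.11, or 1.99-fold, adjusted p = 0.0175), while its nzz ratio of 0.28 ± 0.11 did not pass (adjusted p = 0.12). The difference was 0.71 ± 0.15 (adjusted p = 0.047), kept only without nzz replicate 2 (adjusted p 0.017 to 0.14 over the 8).

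The petal list covers an organ that ap3 flowers lack and nzz flowers have. Of 4 measured petal genes, BPE was called, with ap3 above nzz. BPE (BIG PETAL, listed by RefSeq as BPEp) is a bHLH factor whose petal form limits petal cell expansion. It had -0.27, 0.03, 0.06 and -0.16 on the ap3 arrays and -1.11, -1.10, -1.54 and -1.38 on the nzz arrays. The difference was 1.19 ± 0.22 (adjusted p = 0.024), kept only without ap3 replicate 1 (adjusted p 0.041 to 0.084 over the 8). RBE, a zinc-finger factor of petal primordia, averaged -0.47 ± 0.26 in ap3 and 0.37 ± 0.26 in nzz, a difference of -0.84 ± 0.37 that did not pass (adjusted p = 0.30). PTL, a trihelix factor that acts before petals start, averaged -0.01 ± 0.14 in ap3 and 0.48 ± 0.14 in nzz (adjusted p of the difference 0.24).

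Markers of the other tissues in these samples gave no called difference. Only 2.9% of all tested probes were called, so lists this short may well hold no call. The absence of calls therefore does not show that these tissues were unchanged. Some differences were well beyond their SEs, such as -0.50 ± 0.12 in NGA3 and 0.65 ± 0.17 in AGL24. Others were smaller than their SEs, such as -0.04 ± 0.14 in ALC and 0.03 ± 0.39 in WSD1. Of 6 carpel and ovule genes, 7 of photosynthesis, 3 of mitosis, 2 of the meristem, 3 of flavonoid synthesis and 2 of the cuticle, none passed. Their median differences were -0.15 for carpel and ovule, -0.21 for photosynthesis, -0.04 for mitosis, 0.60 for the meristem, 0.67 for flavonoids and -0.04 for the cuticle. AGL24 and CLV3 are the 2 meristem genes. AGL24, a MADS-box factor of the inflorescence meristem, averaged -0.13 ± 0.12 in ap3 and -0.78 ± 0.12 in nzz, where it was called lower (adjusted p = 0.00398), and CLV3, the stem-cell signal, averaged 0.57 ± 0.15 in ap3 and 0.02 ± 0.15 in nzz. Of the carpel genes, NGA3, a B3 factor of style growth, was called higher in nzz (0.11 ± 0.08 in ap3 and 0.61 ± 0.08 in nzz, adjusted p = 0.00226), as was SEU, a transcriptional co-repressor (0.06 ± 0.07 in ap3 and 0.31 ± 0.07 in nzz, adjusted p = 0.0214). SWEET9, the nectary's sucrose exporter, averaged -0.40 ± 0.70 in ap3 and -2.14 ± 0.70 in nzz (adjusted p of the difference 0.44). ADPG1, a polygalacturonase of anther opening, had 0.54, -0.08, 6.64 and -2.39 on the ap3 arrays, where replicate 3 lay at the limit and alone makes the mean positive, and averaged -2.48 ± 1.15 in nzz; the difference did not pass (adjusted p = 0.30). The part of these tissues in the called differences was not tested. In the stress list, THI2.1 was called and 6 of 7 genes were not. COR47, a dehydrin, averaged -0.44 ± 0.21 in ap3 and -1.53 ± 0.21 in nzz (adjusted p of the difference 0.09).

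A small set of genes was changed in ap3 itself as well as against nzz. Over all tested probes, the ap3 ratio was called at 46 (0.177%), 14 higher and 32 lower, compared with 3973 (15.3%) for the nzz ratio. AT1G44970 had the lowest ap3 ratio of the genes called in both tests: it had -4.71, -3.19, -3.41 and -2.97 on the ap3 arrays and -1.99, -0.83, -1.32 and -2.04 on the nzz arrays. It was called lower in both mutants, 11.9-fold in ap3 and 2.92-fold in nzz, and the difference was -2.02 ± 0.41 (adjusted p = 0.038). That call was kept without ap3 replicate 1 and without ap3 replicate 4, and lost without any other 1 array (adjusted p 0.04 to 0.11 over the 8). AT1G33430 and AT3G07820 were low in both mutants in the other order. AT1G33430 averaged -2.62 ± 0.36 in ap3 and -5.05 ± 0.36 in nzz, a difference of 2.44 ± 0.51 (adjusted p = 0.042), kept only without ap3 replicate 1. AT3G07820 averaged -2.84 ± 0.36 in ap3 and -5.14 ± 0.36 in nzz, a difference of 2.31 ± 0.51 (adjusted p = 0.049), lost with any 1 array left out.

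Higher in ap3 than in wild type, beside ARR15, were AT5G43690, UGT74D1 and AT3G07470, none of them with a called nzz ratio. UGT74D1, a glucosyltransferase that can act on auxins, had 1.11, 0.32, 0.21 and 1.03 on the ap3 arrays and -0.20, -0.53, 0.35 and -0.03 on the nzz arrays. One nzz array reached above the lowest ap3 array, and the ap3 arrays with the mutant in Cy3 were the higher ones. Its difference was 0.77 ± 0.13 (adjusted p = 0.0165), lost without ap3 replicates 2 or 4 or nzz replicate 2 (adjusted p 0.026 to 0.059 over the 8). AT5G43690 differed by 0.76 ± 0.14 and AT3G07470 by 0.58 ± 0.09. The call of AT3G07470 was lost without ap3 replicate 3 alone (highest adjusted p 0.055), and that of AT5G43690 was kept only without ap3 replicate 1 (highest adjusted p 0.084).

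REM22 and BSMT1 are the other genes with symbols among the largest differences below. REM22 (REPRODUCTIVE MERISTEM 22) belongs to the plant-specific B3 family of DNA-binding proteins. It had -0.84, -2.10, -2.11 and -2.02 on the ap3 arrays and 0.22, 0.61, -0.12 and -0.26 on the nzz arrays. All ap3 arrays were below wild type and below all nzz arrays, and 3 of the 4 lay close together. The difference was -1.88 ± 0.38 (adjusted p = 0.037), kept only without ap3 replicate 1, where it was -2.27 (adjusted p 0.00646 to 0.12 over the 8). BSMT1, a methyltransferase that makes the scent esters methyl benzoate and methyl salicylate, had -2.03, -0.77, -1.11 and -1.30 on the ap3 arrays and 0.16, 0.49, 0.10 and 0.19 on the nzz arrays. Its groups did not overlap, and the difference was -1.53 ± 0.33 (adjusted p = 0.047), lost with any 1 array left out and with the arrays centred (adjusted p 0.07 to 0.13 over the 8). The remaining loci of the 15 largest below differed by -2.17 (AT3G48640) to -1.03 (AT1G28190), and each lost its call without 1 or more of the arrays (highest adjusted p 0.059 to 0.15).

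A few called differences rest on values at the limit. AT1G42367, AT1G48220 and AT2G02840 had the largest called differences below, -6.18, -6.32 and -6.46, and the same layout in all 3. Their ratios were -6.64 on ap3 replicates 1 and 4, where the mutant was in Cy3, and 6.64 on nzz replicates 1 and 2, where the mutant was in Cy5. The other arrays lay between -1.16 and 1.90, with 1 ap3 value of AT1G48220 missing, so the groups overlapped. At each limited value the RNA labelled with Cy5 was thus the higher one, in both mutants. Without a dye term none of the 3 was called, and with limited values set to missing they had too few values to be tested. Without 1 array their highest adjusted p was 0.074 to 0.12. The ap3 above side had 19 probes with a limited value. AT1G30350 had -1.17, -0.26, 6.64 and -2.03 on the ap3 arrays, with replicate 3 at the limit, and -5.65, -5.26, -6.64 and -6.64 on the nzz arrays. Its difference of 6.84 ± 1.45 (adjusted p = 0.044) was kept only without ap3 replicate 3, where it was 5.16 (adjusted p 0.026 to 0.14 over the 8). AT3G62710 was at the limit on all 4 nzz arrays, so its difference of 4.82 is set against a bound, with -1.45, -1.55, -1.35 and -2.94 on the ap3 arrays, and its call was lost with any 1 array left out (adjusted p 0.061 to 0.10). AT3G01270 had -3.07, -2.40, -2.29 and -4.00 on the ap3 arrays and -6.10, -5.86, -6.64 and -6.64 on the nzz arrays, a difference of 3.37 ± 0.66 (adjusted p = 0.034) that was lost with any 1 array left out (adjusted p 0.069 to 0.12).

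The ms1 arrays give a view of the same probes in a mutant whose anthers form and fail late. In ms1 inflorescences, collected to stage 13 as for nzz, the 572 probes above had a median ratio of -0.52 with quartiles of -1.32 and -0.15, against 0.02 over all tested probes. The 182 below had a median of 0.10. The ms1 ratio was called lower at 244 of the 572 and at 0 of the 182, beside 1.76% of all tested probes. The ms1 and nzz arrays may share wild-type RNA, since their labels name it alike, and they were fitted together. These medians and counts are therefore a description and no independent check. Along the ms1 flower series, from mature flowers in sample 1 to the youngest buds in sample 7, the medians of the 572 were 0.03, 0.07, -0.12, -0.26, -0.65, -0.37 and -0.34. They were lowest in sample 5 and near 0 in the mature flowers, while the medians of the 182 stayed between -0.08 and 0.14. Single genes departed from this course: AMS had 0.23, 0.85, 2.01, 2.03, 1.69, 1.88 and -4.32 along the series, and BGAL15 had its highest value, 4.72, in sample 6.

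**Figure D4:**
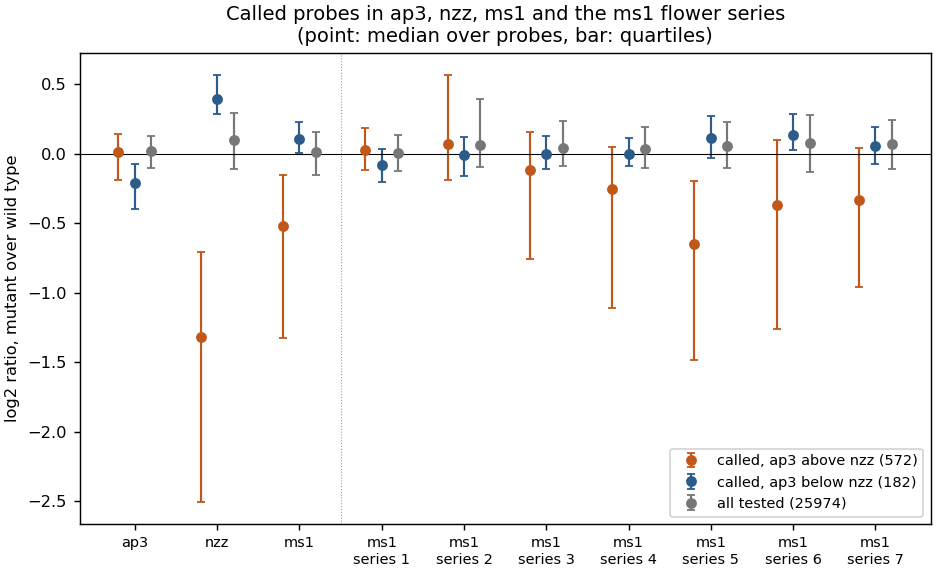
Points are medians and bars quartiles, over probes, of the log2 ratio of mutant over wild type in ap3, nzz and ms1 (4 arrays each) and in the 7 samples of the ms1 flower series (3 arrays each, sample 1 the mature flowers). Orange is the 572 probes called with ap3 above nzz, blue the 182 called below and grey all tested probes. Beside their median of -1.32 in nzz, the orange probes have a median of 0.01 in ap3 and reach -0.65 in sample 5 of the series.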

How the data were processed

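Each of the 8 arrays (33 in the study) held mutant and wild-type RNA, amplified to antisense RNA and coupled to Cy3 or Cy5, per the labels' protocols. The authors deposited 1 normalized table of log10 ratios; the base and the sign are inferred here, because no value passes -2 or 2 and no source states them. How the arrays were scanned, background-corrected and normalized is not given in the sources used here. Values were multiplied by 3.32 to give log2 ratios and turned to mutant over wild type. The number of arrays limits the precision.

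All 12 mutant arrays (ap3, nzz and ms1) were fitted together with limma 3.58.1 (lmFit, eBayes; R 4.3.3), with 1 coefficient per mutant and 1 dye term per probe, and the contrast was ap3 minus nzz. The ap3 and nzz ratios have separate wild-type samples, per the labels. A probe needed at least 3 of 4 values in ap3 and in nzz. Of 26540 lines, 450 controls were left out. The platform annotation, updated with RefSeq TAIR10.1, named 13960 probes, and 12130 unnamed probes stayed in the tests. The fit was tested on simulated data, with independent errors for each array and no limit on the values. That test does not bear on how stable the calls are.

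Named genes were the 15 largest called differences in each direction without overlap or limited values, the 5 largest with limited values, called list members, the 5 with the largest opposite ratios, and the 5 largest also called in ap3. The probe with the lowest p stood for a gene. Members, lists and rules were chosen with earlier results of these data known. Alternatives covered scaling, arrays fitted, the dye term, a replicate block, limited and missing values, the reading of the sign, robust eBayes and each array left out.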

Additional observations from a re-analysis of the deposited data

Results flagged for a closer look

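Among the 55 named genes, 108 groups of 4 arrays were examined for an array set apart from the other 3, and 5 groups held one; chance gives about 1 in 20. In AMS, nzz replicate 3 was at -6.64, the limit, and the others lay between -4.94 and -4.84. In REM22, ap3 replicate 1 was at -0.84 and the others lay between -2.11 and -2.02. In AT3G62710, ap3 replicate 4 was at -2.94 and the others lay between -1.55 and -1.35. In AT1G51410, nzz replicate 4 was at -5.72 and the others lay between -3.44 and -3.02. In AT5G49120, nzz replicate 1 was at 0.083 and the others lay between 0.42 and 0.48. No cause of these was tested.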

How the results depend on the processing

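As reported there were 754 calls, 572 above and 182 below, and 11 listed genes called. Scaling the arrays to one spread gave 416 (302 above, 114 below, 6 listed), no dye term gave 443 (370, 73 and 6), and a replicate block gave 224 (193, 31 and 4). Deviations of ap3 and nzz arrays follow the dye. After the dye term those of same-numbered arrays correlated at 0.23, -0.16, 0.19 and -0.17. These signs still follow the dye: over all pairs, r ran from 0.08 to 0.23 with opposite dyes and from -0.24 to -0.09 with the same dye. The values thus do not settle whether the numbers pair the arrays, and no pairing was taken. Of the 224 blocked calls, 212 were among the 754. Centring the arrays moved the count below to 92, leaving out probes with a limited value moved it to 286, and keeping only probes never missing or limited on the 33 arrays moved it to 328. Taking the deposited values for dye ratios left 21 calls, 0 of them among the 754, and 0 listed genes. With 1 array left out the calls ranged from 235 to 749, those above from 210 to 583, those below from 25 to 166 and the listed genes from 4 to 13. Other than without ap3 replicate 1, leaving out any 1 array moved all 4 counts by over 1.5 times. The cause of these changes was not tested. The 8 arrays alone, limited values set to missing, complete probes, robust eBayes and a dye term for each mutant (added after seeing the data) kept every count computed within 1.5 times. The probes called were not always the same. In that order, 517 of 779, 738 of 975, 748 of 767, 681 of 681 and 578 of 809 calls were among the 754. Adding list members matched by locus alone gave 12 listed genes. Of the 55 named genes 17 kept their call under the block and 51 with centring, and none changed direction under any setting. At an unadjusted p under 0.05, 4329 of 25974 probes differed.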

Other observations

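Of the 368 called probes with a named gene, 57 carry a gene symbol, 44 above and 13 below. A few of these outside the lists follow as single values; they were picked after their values were seen, stand for no group, and were not refitted with arrays left out. LEA, a late embryogenesis abundant gene, averaged -0.16 in ap3 and -4.09 in nzz (difference 3.93 ± 0.57). PLIM2b, a LIM-domain protein that bundles actin in pollen, averaged -0.30 in ap3 and -1.67 in nzz (1.37 ± 0.19). XTH19, a xyloglucan endotransglucosylase, averaged 0.26 in ap3 and -0.99 in nzz (1.25 ± 0.18). XERICO, a RING protein that raises abscisic acid, averaged -0.26 in ap3 and 0.46 in nzz (-0.73 ± 0.11).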
